A study of Mus musculus with 4 samples.

Results

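The vascular endothelial growth factor (VEGF) family was examined in single cardiac cells as 9 genes of the 31253 gene rows in the files. They were taken by symbol and comprise 4 ligands (Vegfa, Vegfb, Vegfc and Pgf), 3 receptors (Flt1, Kdr and Flt4) and 2 neuropilins (Nrp1 and Nrp2). RFP-positive cells, labelled as endothelial cells (ECs), were sorted from the left ventricle and sequenced with the 10x Genomics 3′ assay, which counts unique molecular identifiers (UMIs), each standing for 1 captured transcript. All 4 libraries came from C57BL/6N mice that carry 1 or 2 floxed alleles of Scarb1 (Scarb1 fl/+ or fl/fl), a Cdh5-CreER transgene and the R26-stop-tdTomato reporter, and that received 5 tamoxifen injections at 7 weeks of age. The reporter thus marks cells in which the Cdh5 promoter drove Cre. The 2 NC libraries are from mice on a Chow diet (10% of energy from fat). The 2 HFpEF libraries are from mice given a high-fat diet (60% of energy from fat) together with the nitric oxide synthase inhibitor L-NAME at 0.5 mg/mL in drinking water, a model of heart failure with preserved ejection fraction. Both regimens lasted 20 weeks. The labels name the diet of a library but not its Scarb1 genotype. The study describes NC and HFpEF mice of both genotypes in these data, so the 2 libraries of a diet are taken to be 1 of each genotype and not plain replicates, with no library assigned to either, and the spread within a diet then includes any effect of genotype. How many mice went into a library is not given in the sources used here.

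The 4 libraries held between 11163876 and 48003732 UMIs, and 40154 cells with over 200 genes and under 20% mitochondrial UMIs were kept. NC libraries 1 and 2 held 7123 and 6695 of these cells, and HFpEF libraries 1 and 2 held 5454 and 20882. HFpEF library 2 was thus by far the largest. Cells with at least 1% hemoglobin UMIs numbered 9, 8, 14 and 294 in the same order. Median depth was 3754 and 4127 UMIs per cell in NC libraries 1 and 2, and 1736.5 and 1619 in HFpEF libraries 1 and 2, so depth per cell moved with the diet. Pairs of libraries shared between 9 and 39 cell barcodes. Values below are UMIs of a gene scaled by all UMIs of the same cells (CPM, counts scaled to a common total), summed per library over a class of cells, and sets of 4 values follow the order NC 1, NC 2, HFpEF 1, HFpEF 2. Cells were clustered without the 9 genes and named from marker genes, so each name stands for cells like that type. There were 27864 capillary, 3084 artery, 1290 vein, 90 lymphatic and 211 endocardial ECs. A further 5646 cells, in clusters E6 and E9, had at least 2 artery markers among their 10 leading genes but lay below the level set for artery ECs, and are called arterial capillary ECs, a class added after the data had been seen. Mural-like cells, the pericytes and smooth muscle cells that wrap vessels, numbered 1074 despite the endothelial label. Most of them also carried EC RNA: the summed level of 5 EC markers (Pecam1, Cdh5, Tie1, Egfl7 and Esam) was 2041, 2025, 1870.1 and 2015 CPM in mural-like cells against 4051, 4387, 3592 and 3746 CPM in capillary ECs. A pericyte-like cluster and a smooth muscle-like cluster were low in EC RNA, at 19.2% and 12.2% of the capillary sum, and are given separately where a level in mural cells is described. In such sorted suspensions, more cells carrying a transcript and more transcript per cell cannot be told apart from summed counts.

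VEGF ligands are secreted proteins that bind receptor tyrosine kinases on endothelial cells. KDR (VEGFR2) carries most of the growth, survival and permeability signal of VEGF-A. FLT1 (VEGFR1) binds VEGF-A, VEGF-B and placental growth factor (PGF) and acts largely as a decoy for VEGF-A, whereas FLT4 (VEGFR3) binds VEGF-C and is the receptor of lymphatic vessels. Neuropilins are co-receptors that bind both VEGFs and class 3 semaphorins. In the heart, where nearly every myocyte lies next to a capillary, cardiomyocytes are a main source of VEGF-A, and a ligand made by the endothelium itself acts locally.

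The promoters of Vegfa and Vegfc are shown because these ligands had the largest differences between the diets in ECs. Each sequence is the 250 bases before a RefSeq start site on GRCm38.p6, 5′ to 3′ on the strand of the gene, with GC boxes (GGGCGG on either strand, the binding motif of Sp1) in capitals. The Vegfa window is chr17:46032378-46032627 on the minus strand, with GC boxes that begin 62 and 72 bases before the start, and the Vegfc window is chr8:54077282-54077531 on the plus strand, with GC boxes that begin 232 and 243 bases before the start.
Vegfa: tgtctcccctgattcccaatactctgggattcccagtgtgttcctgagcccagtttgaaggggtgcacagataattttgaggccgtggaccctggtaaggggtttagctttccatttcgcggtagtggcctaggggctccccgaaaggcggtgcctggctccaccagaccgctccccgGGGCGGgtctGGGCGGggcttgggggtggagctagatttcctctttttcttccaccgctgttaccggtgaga
Vegfc: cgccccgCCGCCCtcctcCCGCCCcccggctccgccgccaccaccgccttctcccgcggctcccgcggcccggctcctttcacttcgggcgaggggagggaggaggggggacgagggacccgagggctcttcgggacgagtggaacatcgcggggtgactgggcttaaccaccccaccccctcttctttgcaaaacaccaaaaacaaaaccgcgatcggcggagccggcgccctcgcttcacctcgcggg
The 9 genes have 11 such windows, since Vegfa and Pgf have 2 each. A GC box was found in 10 of the 11, against 32.7% of the 32851 windows of all genes. The core of a hypoxia response element, ACGTG on either strand, was found in 1 of the 11, the second window of Vegfa, against 16.6% of all windows. These matches describe letters and were not tested as binding sites.

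Vegfa (17:46016993-46032369, minus strand) encodes the main ligand of KDR. Its level in capillary ECs was 64.4, 53.7, 82.0 and 101 CPM, from 6087 UMIs in all. Artery ECs had 81.3, 90.6, 137 and 118 CPM. In each of these classes the lower HFpEF value exceeded the higher NC value. Vein ECs had 95.7, 80.4, 115 and 139 CPM, again without overlap between the diets. Arterial capillary ECs held the least of these classes, with 28.8, 20.7, 29.2 and 31.4 CPM. Within a library, the log2 ratio of arterial capillary to capillary ECs was -1.39 ± 0.22 (mean ± SD, n = 4 libraries). The smooth muscle-like cluster low in EC RNA reached 111, 124, 112 and 103 CPM from 57 UMIs, a level that did not differ beyond the spread from vein ECs, the next in order, while the pericyte-like cluster low in EC RNA had 10.8, 41.4, 76.4 and 36.5 CPM from 16 UMIs.

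Vegfb (19:6982473-6987651, minus strand), a ligand of FLT1, was a low transcript in ECs. It reached 11.7, 11.99, 12.9 and 9.07 CPM in capillary ECs. Artery ECs had less, at 8.27, 5.59, 7.63 and 6.49 CPM, a log2 ratio of 0.64 ± 0.26 between capillary and artery ECs. The values of the diets overlapped in both classes. Proliferating ECs (112 cells) had the highest mean among the EC, low-EC mural and fibroblast-like classes, 63.8 CPM. NC library 2 and HFpEF library 1 held only 8 and 5 of these cells. This mean did not differ beyond the spread from the next in order, the smooth muscle-like cluster low in EC RNA. Lymphatic ECs had 32.5, 47.3, 38.1 and 75.7 CPM from 22 UMIs. The smooth muscle-like cluster low in EC RNA had 90.9, 38.2, 56.2 and 40.2 CPM from 25 UMIs. The spread between libraries was wide in lymphatic ECs and in this cluster.

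Vegfc (8:54077606-54187096, plus strand), the ligand of FLT4, followed the arterial and venous ends of the vascular bed. Artery ECs held 308, 413, 422 and 318 CPM, or 365 ± 60.5 CPM (SD, n = 4 libraries), and vein ECs held 243, 306, 272 and 221 CPM. The log2 ratio of artery to vein ECs was 0.48 ± 0.12, larger than its spread. Capillary ECs had 32.5, 28.4, 33.9 and 27.6 CPM, with overlap between the diets. Arterial capillary ECs lay between, with 107, 99.6, 52.7 and 41.3 CPM, the HFpEF libraries below the NC libraries. The log2 ratio of vein to arterial capillary ECs was 1.88 ± 0.59. The smooth muscle-like cluster N0, which also carried EC RNA, had 245, 256, 311 and 214 CPM, whereas the smooth muscle-like cluster low in EC RNA had 10.1, 38.2, 112 and 34.5 CPM from 17 UMIs.

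Pgf (12:85166635-85177790, minus strand) encodes placental growth factor, a ligand that binds FLT1 but not KDR. It was highest in lymphatic ECs, with 487, 158, 229 and 227 CPM from 110 UMIs, and in the smooth muscle-like cluster low in EC RNA, with 253, 229, 112 and 259 CPM. These did not differ beyond the spread between libraries. Capillary ECs as a whole had 22.6, 24.0, 26.7 and 20.7 CPM, and arterial capillary ECs had between 1.00 and 2.84 CPM from 21 UMIs. Within the capillary class, Pgf was uneven. Cluster E8.3, led by Pgf itself, Ccl2 and Apln, had 359, 336, 503 and 265 CPM. In cluster E8.4, led by Apln, the values were 208, 211, 173 and 62.7 CPM. Cluster E8.2 also had Pgf among its leading genes, but held only 7 and 13 cells in NC libraries 1 and 2, so its levels are not given. Since Pgf is among the genes that lead E8.3 and E8.4, these levels describe them and are no test.

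Flt1 (5:147561604-147726011, minus strand) was abundant in every blood EC class. Capillary ECs had 1429, 1407, 1228 and 1397 CPM. Artery ECs had 1855, 1845, 1652 and 1795 CPM, and vein ECs 1792, 1662, 1565 and 1761 CPM. Arterial capillary ECs did not differ beyond the spread between libraries from artery or vein ECs, while artery ECs exceeded vein ECs by a small log2 ratio of 0.076 ± 0.053, in 4 of 4 libraries. Vein ECs exceeded capillary ECs by a log2 ratio of 0.31 ± 0.05. Endocardial ECs had less, by a log2 ratio of 1.02 ± 0.14 between capillary and endocardial ECs, and lymphatic ECs had a mean of 147 CPM. Among the 11 capillary clusters with at least 20 cells in each library, the Pgf-rich E8.3 and E8.4 were the lowest in this receptor of PGF. Their means were 539 and 559 CPM, against 1069 to 1551 CPM in the others. Clusters were formed from other genes of the same cells, so this is a description.

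Kdr (5:75932827-75978458, minus strand) peaked along the capillary to arterial capillary stretch. Arterial capillary ECs had 1545, 1832, 1596 and 2051 CPM. Capillary ECs had 1181, 1432, 1175 and 1538 CPM, a log2 ratio of 0.40 ± 0.04 below the former. Artery ECs had 923, 940.4, 727 and 1062 CPM, with a log2 ratio of 0.55 ± 0.14 between capillary and artery ECs. HFpEF library 2 was the highest of the 4 libraries in all 3 classes. Lymphatic ECs had 509, 844, 648 and 819 CPM, vein ECs 489, 450.4, 384 and 593 CPM, and endocardial ECs 189, 181, 225 and 367 CPM. In the mural clusters low in EC RNA, Kdr was at 8.82% (pericyte-like) and 2.45% (smooth muscle-like) of its capillary level, below their share of EC marker RNA.

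Flt4 (11:49609263-49652739, plus strand) stood out in lymphatic ECs, which had 866, 1010.1, 1068 and 936 CPM. The next class, artery ECs, had 66.5, 72.0, 58.8 and 61.4 CPM, and the log2 ratio of lymphatic to artery ECs was 3.89 ± 0.20. Capillary ECs had 46.0, 48.4, 42.0 and 49.2 CPM. Vegfc, which encodes its ligand, was high in artery and vein ECs and had a mean of 14.4 CPM, from 6 UMIs, in the lymphatic ECs that hold Flt4.

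Nrp1 (8:128358604-128503363, plus strand), the neuropilin that pairs with KDR, had 727, 726, 749 and 938 CPM in capillary ECs. Arterial capillary ECs had 801, 803, 892 and 1063 CPM. Artery ECs had 539.6, 572, 583 and 654 CPM. In these 3 classes the HFpEF libraries lay above the NC libraries, in capillary ECs mainly through HFpEF library 2. Capillary ECs exceeded artery ECs by a log2 ratio of 0.41 ± 0.08, and artery ECs exceeded vein ECs by 0.13 ± 0.07. Unlike Kdr, Nrp1 was kept in the pericyte-like cluster low in EC RNA, with 488, 419.8, 336 and 389 CPM, or 51.2% of the capillary level, and lymphatic ECs had only 0, 78.9, 38.1 and 138 CPM from 32 UMIs.

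Nrp2 (1:62703285-62818695, plus strand), the neuropilin that pairs with FLT4 and binds VEGF-C, was high in lymphatic ECs, where Nrp1 was low. Like Nrp1, it was lower in artery than in capillary ECs. Lymphatic ECs held 682, 749.7, 991 and 544 CPM. Vein ECs had 270.4, 268, 307 and 290.3 CPM, and capillary ECs 246, 270.5, 244 and 269 CPM, which did not differ beyond the spread (log2 ratio 0.14 ± 0.14). Arterial capillary ECs had 109, 149, 163 and 184.5 CPM, less than capillary ECs by a log2 ratio of 0.79 ± 0.29, and artery ECs had 60.5, 50.3, 50.1 and 69.3 CPM. Along the capillary-to-artery sequence, the level of Nrp2 was lower where that of Vegfc was higher. In the capillary clusters E8.3 and E8.4, Nrp2 reached means of 551 and 542 CPM. The other capillary clusters with at least 20 cells in each library had 174 to 337 CPM.

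**Figure D1:**
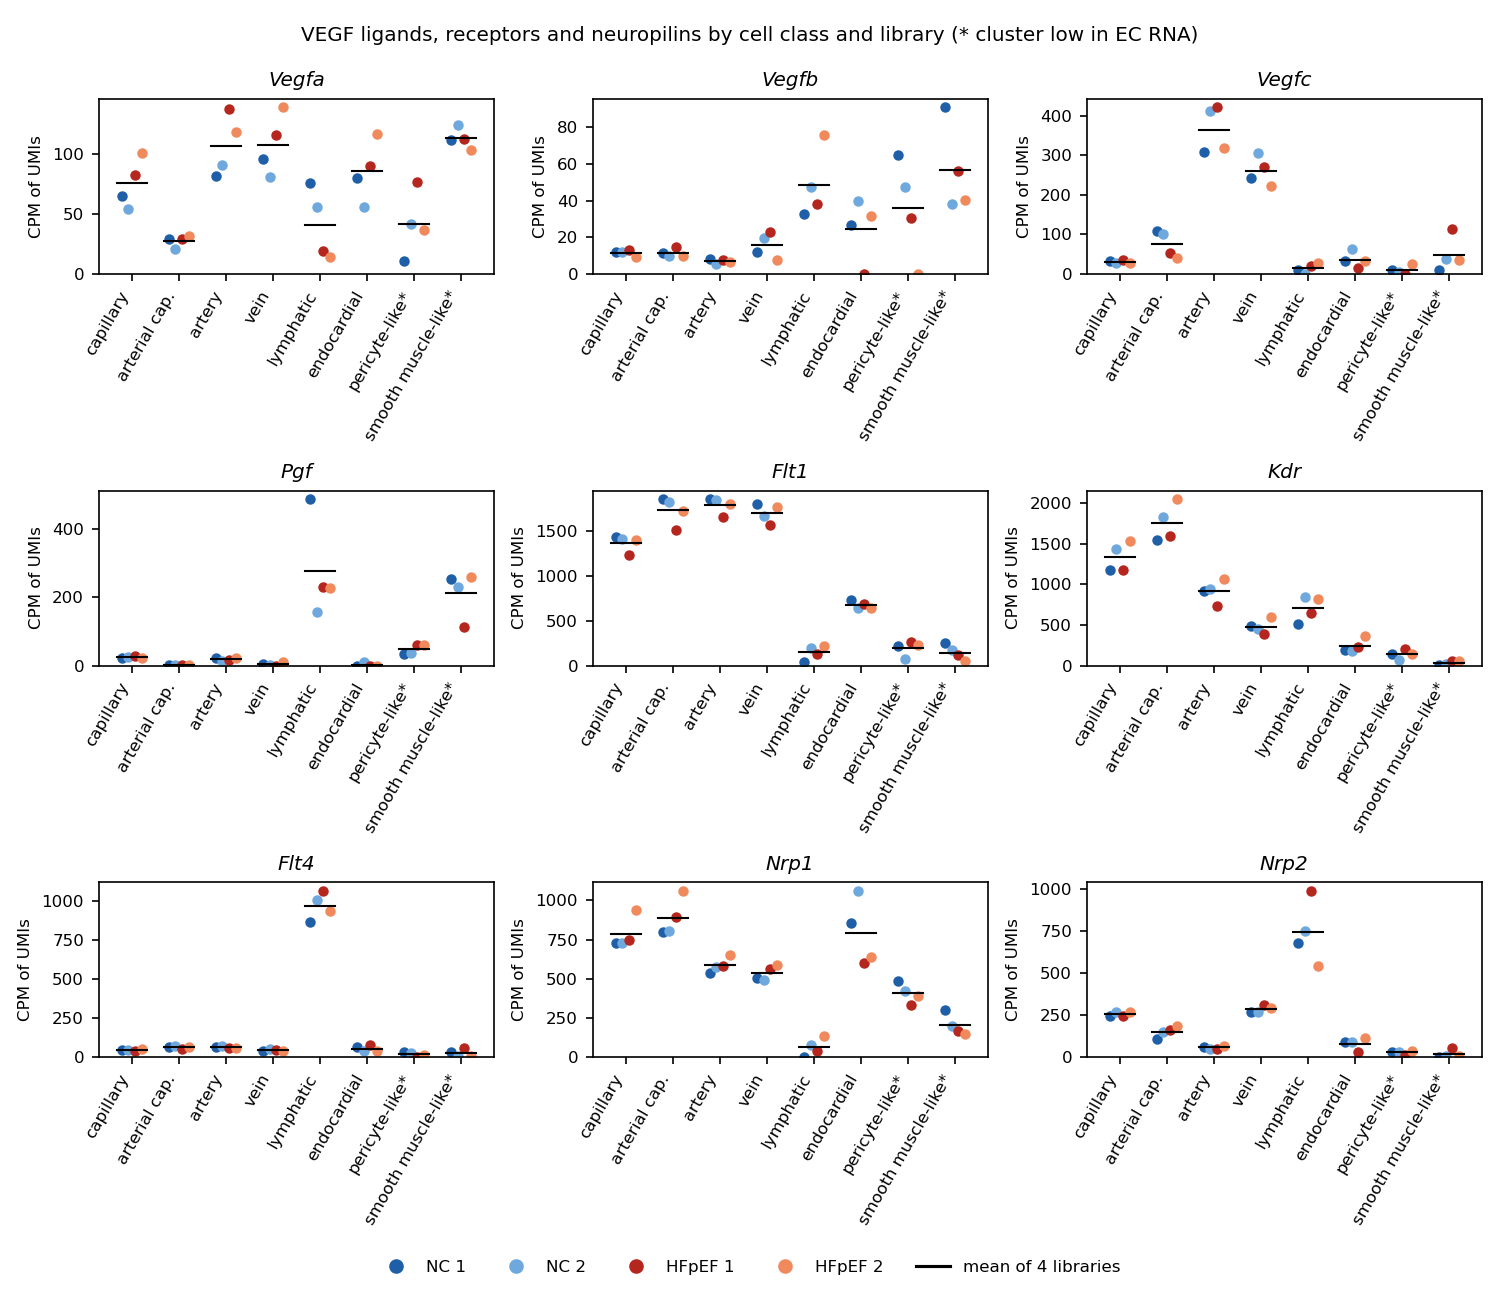
Each panel shows 1 gene, with the level in CPM on the vertical axis and the cell classes on the horizontal axis; points are the 4 libraries, the black line is their mean, and an asterisk marks a mural cluster low in EC RNA. Flt4 stands out in lymphatic ECs (866 to 1068 CPM), Vegfc in artery ECs (308 to 422 CPM), and Kdr in arterial capillary ECs (1545 to 2051 CPM).

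To ask whether the HFpEF regimen moved these genes, UMIs were summed per library within a class, and HFpEF was compared with NC in edgeR (quasi-likelihood test), with p-values adjusted over all genes tested by Benjamini and Hochberg's method. Log2 fold changes are HFpEF over NC with their standard errors. With 2 libraries per diet, p-values measure only the spread between these libraries, genotype included, and an exact two-sided permutation test of 1 gene could not go below p = 0.33. None of the 9 genes passed an adjusted p of 0.05 in capillary ECs, where 0.186% of 12342 genes did. None of the 9 passed in artery ECs (0.0098% of 10199 genes) or in mural-like cells (0.254% of 9441). In vein ECs none of the 8 tested passed, against 0.587% of 8183 genes, Pgf being too low to test. In arterial capillary ECs 1 of 8 passed, Vegfc, against 0.373% of 9932 genes. At an unadjusted p under 0.05 there was 1 member each in capillary (Vegfa), artery (Vegfa) and vein ECs (Vegfa) and in mural-like cells (Kdr). Over all genes, 2402 of 12342 reached this in capillary ECs and 1019 of 10199 in artery ECs. In vein ECs 845 of 8183 did, and in mural-like cells 993 of 9441, so such p-values were frequent. Arterial capillary ECs had 2 members (Vegfc and Nrp2), beside 1281 of 9932 genes. DESeq2 called 1 in capillary ECs (Vegfa), 0 in artery ECs, vein ECs and mural-like cells, and 1 in arterial capillary ECs (Vegfc). Of all genes, it called 336 in capillary ECs, 27 in artery ECs and 8 in vein ECs. In mural-like cells and arterial capillary ECs its counts were of similar size to the 24 and 37 genes called by edgeR. Pericyte-like cells (0.374% of 7225 genes called), smooth muscle-like cells (0.0127% of 7882) and all ECs together (0.0689% of 13067) were tested too. In each, 0 of 9 members passed. Members at an unadjusted p under 0.05 numbered 2, 1 and 1, beside 694, 742 and 2342 of these genes.

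In capillary ECs Vegfa had a log2 fold change of 0.65 (SE 0.14, 95% interval 0.38 to 0.92), with an unadjusted p of 0.0018 and an adjusted p of 0.0898 by edgeR. The estimates for artery ECs (0.56, SE 0.15, adjusted p = 0.258 by edgeR) and vein ECs (0.57, SE 0.19, adjusted p = 0.260) were of similar size. The call depended on the setting, as did the number of all genes called in capillary ECs. That number was 23 in the main edgeR test, 336 with DESeq2 and 146 after thinning to 1000 UMIs. Over 14 alternatives for capillary ECs the log2 fold change ran from 0.45 to 0.83 and the adjusted p from 0.00841 to 0.495, and it passed with DESeq2 (adjusted p = 0.00841) and after each cell was thinned to 1000 UMIs (adjusted p = 0.0300 by edgeR). Vegfa and Nrp1 lay above NC without overlap in capillary ECs and Flt1 below it. Over all genes in these cells, 22.9% lay above and 28.4% below without overlap, so such a separation is frequent here. In artery ECs Vegfa and Nrp1 lay above and Flt1 and Flt4 below (19.6% and 22.3% of all genes), and in vein ECs Vegfa, Nrp1 and Nrp2 lay above and none below (20.1% and 21.4%). In arterial capillary ECs Vegfa, Nrp1 and Nrp2 lay above and Vegfc and Flt1 below (20.3% and 22.5%), and in mural-like cells Kdr and Nrp2 lay above and Vegfb below (17.4% and 24%).

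Vegfa was also compared within the capillary clusters, because the clusters that make up the class differ between the diets. Clusters E3 and E4 held 37.5% and 28.2% of the capillary ECs of NC library 1 and 26.4% and 37.4% of those of NC library 2, whereas E0 and E2 held 20.9% and 20.4% in HFpEF library 1 and 22.6% and 21.4% in HFpEF library 2. In 8 of the 11 clusters with at least 20 cells in each library, Vegfa lay above NC in both HFpEF libraries, and in none was it below. Of all genes, 1.77% lay above in 8 or more clusters, a cutoff set at the count of Vegfa itself. The clusters come from the same libraries, so a difference between libraries can recur across them. The count is a description and no test. Cluster E1 had 96.5, 112, 133 and 145 CPM of Vegfa, and cluster E3, led by the capillary markers Aqp1 and Timp4, had 83.9, 79.9, 101 and 97.3 CPM. In E0 the HFpEF values also lay above the NC values, with 97.2, 45.8, 102 and 124 CPM, though NC library 1 was close to HFpEF library 1. Between clusters, Vegfa ranged from a mean of 11.1 CPM in E5 to 121 CPM in E1.

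**Figure D2:**
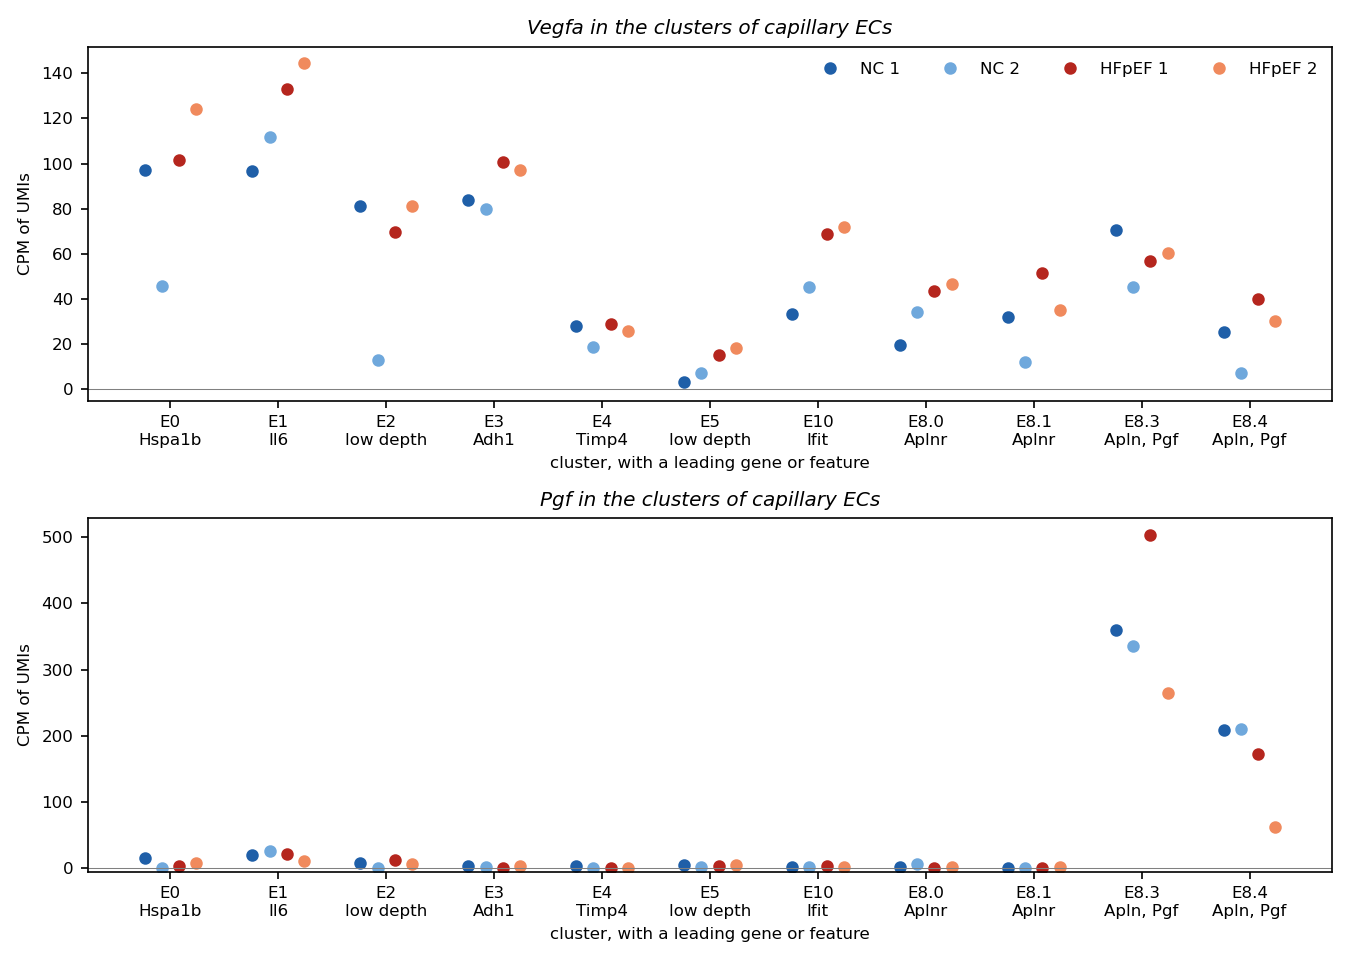
Levels of Vegfa and Pgf in CPM (vertical axes) in the 11 capillary clusters with at least 20 cells per library (horizontal axis), with 1 point per library. HFpEF points lie above NC points for Vegfa in 8 of 11 clusters, and Pgf is concentrated in E8.3 (265 to 503 CPM) and E8.4 (62.7 to 211 CPM).

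Counted by cells after each was thinned to 1000 UMIs, 5.26% (95% exact Clopper-Pearson interval 4.64 to 5.94) and 4.51% (3.91 to 5.18) of capillary cells in NC libraries 1 and 2 had a Vegfa UMI. The shares were 7.45% (6.50 to 8.50) and 8.96% (8.41 to 9.54) in HFpEF libraries 1 and 2. Intervals cover counting error only. For comparison, B-like cells had a Vegfa UMI in 3 of 128 cells (2.34%). T-like cells had one in 0 of 67, with an exact upper bound of 5.36%. Neither is a background of free RNA alone, since the 5 EC markers summed to between 1919 and 2187 CPM in B-like and between 683 and 1540 CPM in T-like cells. Thinning to 1000 UMIs left out 376, 288, 837 and 4581 shallower capillary ECs. At 500 UMIs, which left out 97, 79, 96 and 0, the shares were 2.95%, 2.28%, 3.42% and 4.24%. The intervals of NC library 1 (2.49 to 3.46) and HFpEF library 1 (2.85 to 4.08) then overlapped. Without thinning the shares were 18.2%, 16.3%, 11.9% and 14.8%, in the opposite direction. Median depth of capillary ECs was 3688, 4032.5, 1652 and 1455.5 UMIs. The shares thus followed depth between the diets, but within a diet the deeper library had the lower share. The immediate-early and heat shock genes, a list of 11 added after the data were seen, were also higher in HFpEF. Their summed level was 26414, 23290, 33705 and 33440 CPM in capillary ECs, and 30871, 28921, 35347 and 35341 CPM in artery ECs. They were higher as well in mural-like cells (29680, 27025, 37480 and 33900 CPM), where Vegfa had a log2 fold change of 0.07. In arterial capillary ECs they had 18098, 17349, 22158 and 20239 CPM, and Vegfa a log2 fold change of 0.31. Their part in the Vegfa difference was not tested.

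Vegfc fell in arterial capillary ECs of HFpEF hearts, from 107 and 99.6 CPM to 52.7 and 41.3 CPM. The log2 fold change was -1.18 (SE 0.16, 95% interval -1.50 to -0.86), to 0.442 of the NC level, with an adjusted p of 0.0110 by edgeR. In artery ECs, where the gene is highest, the log2 fold change was 0.04 (adjusted p = 0.970 by edgeR), and in capillary ECs it was 0.01 (adjusted p = 0.985). The difference between these effects was tested by an interaction term. The effect in arterial capillary ECs was lower than that in capillary ECs by 1.21 on the log2 scale (-1.21, SE 0.13, adjusted p = 6.41e-12 by edgeR), in a comparison in which 5.18% of 11361 genes passed. Against artery ECs it was lower by 1.19 (-1.19, SE 0.16, adjusted p = 0.000383 by edgeR), where 0.171% of 10508 genes passed. At clustering resolution 1.2 the difference from capillary ECs shrank to -0.53 (adjusted p = 0.0056 by edgeR), and that from artery ECs to -0.51, which did not pass (adjusted p = 0.529).

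The class is not made up alike in the diets. Cluster E9, led by Hey1 and Esm1, held 69.4%, 70.6%, 14.6% and 28.9% of the arterial capillary ECs of the 4 libraries, and E6, led by Pth1r and Aqp7, held the rest. In E9 Vegfc was at 119, 102, 62.4 and 37.4 CPM, without overlap between the diets. In E6 it was at 47.5, 86.0, 49.5 and 45.0 CPM, with overlap. The summed level of 13 artery markers was also lower in HFpEF arterial capillary ECs, with 7784, 6733, 5508 and 5952 CPM. Within E9 this sum was 8214, 7054, 6249 and 6016 CPM, again lower in HFpEF without overlap. Within E6 it was 5598, 4992, 5263 and 5889 CPM, with overlap. The part of the artery markers in the result was not tested. Of 12 alternatives, 11 kept the call, and at clustering resolution 1.2, where the class held 728, 664, 636 and 2414 cells, the log2 fold change was -0.55 (adjusted p = 0.226 by edgeR). By cells thinned to 1000 UMIs, 8.91%, 8.58%, 4.57% and 3.31% of arterial capillary ECs had a Vegfc UMI, against 1.56% of B-like and 1.49% of T-like cells. In pericyte-like cells Vegfc had 103, 108, 42.6 and 55.5 CPM, with a log2 fold change of -1.03 (SE 0.26) that did not pass the test (adjusted p = 0.102 by edgeR). The pericyte-like cluster low in EC RNA held only 4 Vegfc UMIs in 200 cells. These values thus rest mainly on the pericyte-like cluster that also carried EC RNA.

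**Figure D3:**
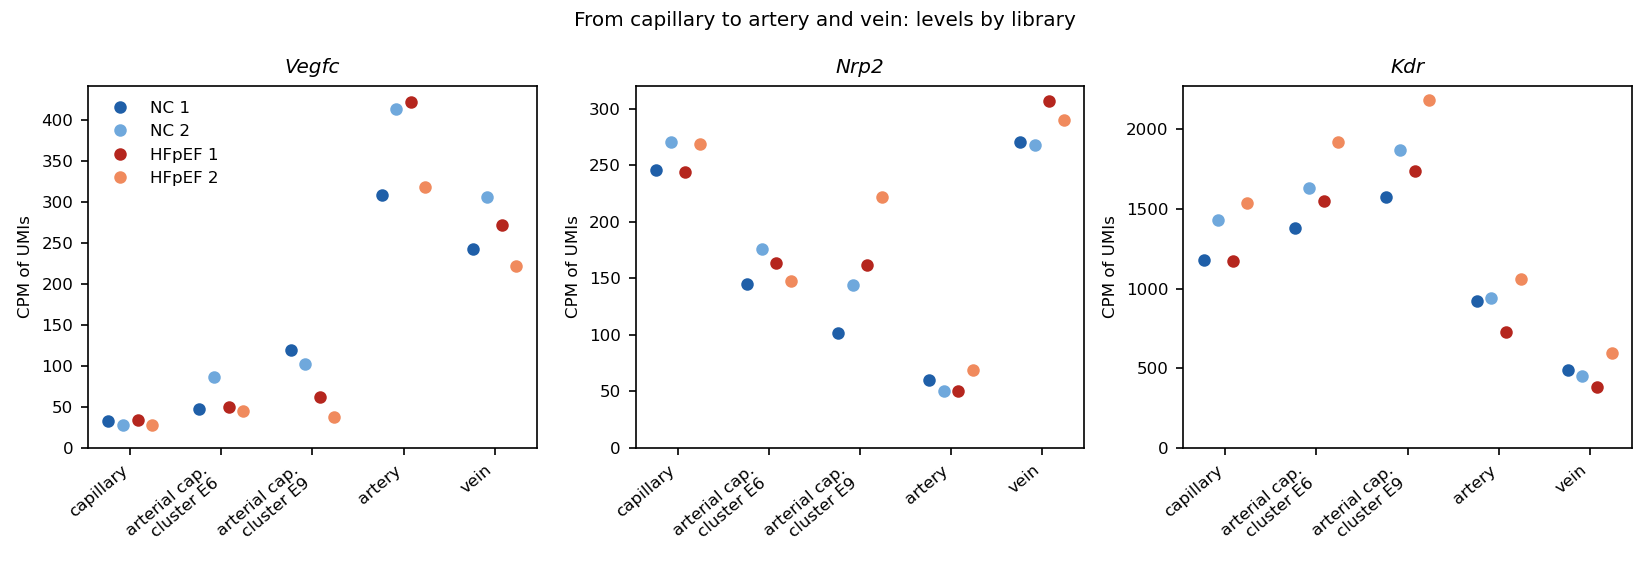
Levels of Vegfc, Nrp2 and Kdr in CPM (vertical axes) across capillary ECs, clusters E6 and E9, artery ECs and vein ECs (horizontal axis), with 1 point per library. In E9 the NC points of Vegfc (102 and 119 CPM) lie above the HFpEF points (37.4 and 62.4 CPM), while in artery ECs the diets overlap.

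Nrp2 went the other way in the same cells. It had 109, 149, 163 and 184.5 CPM, without overlap, and a log2 fold change of 0.44 (SE 0.15, adjusted p = 0.244 by edgeR). The part of the shift between clusters E9 and E6 in these values was not tested. The effect on Nrp2 was larger than that in capillary ECs by 0.41 (SE 0.09, adjusted p = 0.00107 by edgeR). This difference did not pass without NC library 1 (0.27, adjusted p = 0.261), at resolution 1.2 (0.29, adjusted p = 0.255) or after thinning (0.22, adjusted p = 0.610).

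None of the receptors and neuropilins passed the test in capillary ECs. Flt1 in capillary ECs had a log2 fold change of -0.09 (SE 0.12, adjusted p = 0.698 by edgeR). Kdr had 0.07 (SE 0.16, 95% interval -0.24 to 0.38, adjusted p = 0.840 by edgeR). Flt4 had -0.02 (adjusted p = 0.927 by edgeR) in capillary ECs, and Nrp1 had 0.23 (SE 0.13, 95% interval -0.02 to 0.49, adjusted p = 0.361). Among the other ligands, Vegfb had -0.15 (adjusted p = 0.712 by edgeR) and Pgf 0.01 (adjusted p = 0.973). Nrp2 had 0.01 (adjusted p = 0.976 by edgeR).

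In mural-like cells Kdr was at 343, 391, 395 and 567 CPM, with HFpEF above NC by a narrow margin. The log2 fold change was 0.44 (SE 0.16, adjusted p = 0.350 by edgeR). It passed without HFpEF library 1 (0.64, adjusted p = 0.0280 by edgeR) and when cells were gated one by one on markers (0.61, adjusted p = 0.0311), but was 0.16 (adjusted p = 0.852) without HFpEF library 2. Over 14 alternatives the value ran from 0.16 to 1.00 and the adjusted p from 0.0280 to 0.852, the highest value being that of the mural clusters low in EC RNA, which did not pass. The smooth muscle-like share of mural cells was 40%, 47.3%, 40.2% and 56.6%, and the share of cells in clusters low in EC RNA was 33.8%, 39.4%, 24.7% and 28.5%; the part of either in the Kdr values was not tested. In the smooth muscle-like cluster low in EC RNA, Kdr was at 10.1, 23.9, 56.2 and 57.5 CPM, from only 17 UMIs in 136 cells. HFpEF library 1 held 9 of these cells, so the values lie near the floor. Both HFpEF values exceeded both NC values, but the UMIs are too few to read a difference between the diets. Vegfa in mural-like cells was at 78.4, 82.7, 93.9 and 76.6 CPM, with a log2 fold change of 0.07 (adjusted p = 0.939 by edgeR). Its effect there was lower than in capillary ECs by 0.65 (-0.65, SE 0.19), a difference that did not pass (adjusted p = 0.0975 by edgeR; 0.734% of 11724 genes passed). Between artery and capillary ECs, where 0.469% of 11293 genes passed, none of the 9 members did, and the difference for Vegfa was -0.17 (adjusted p = 0.943).

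**Figure D4:**
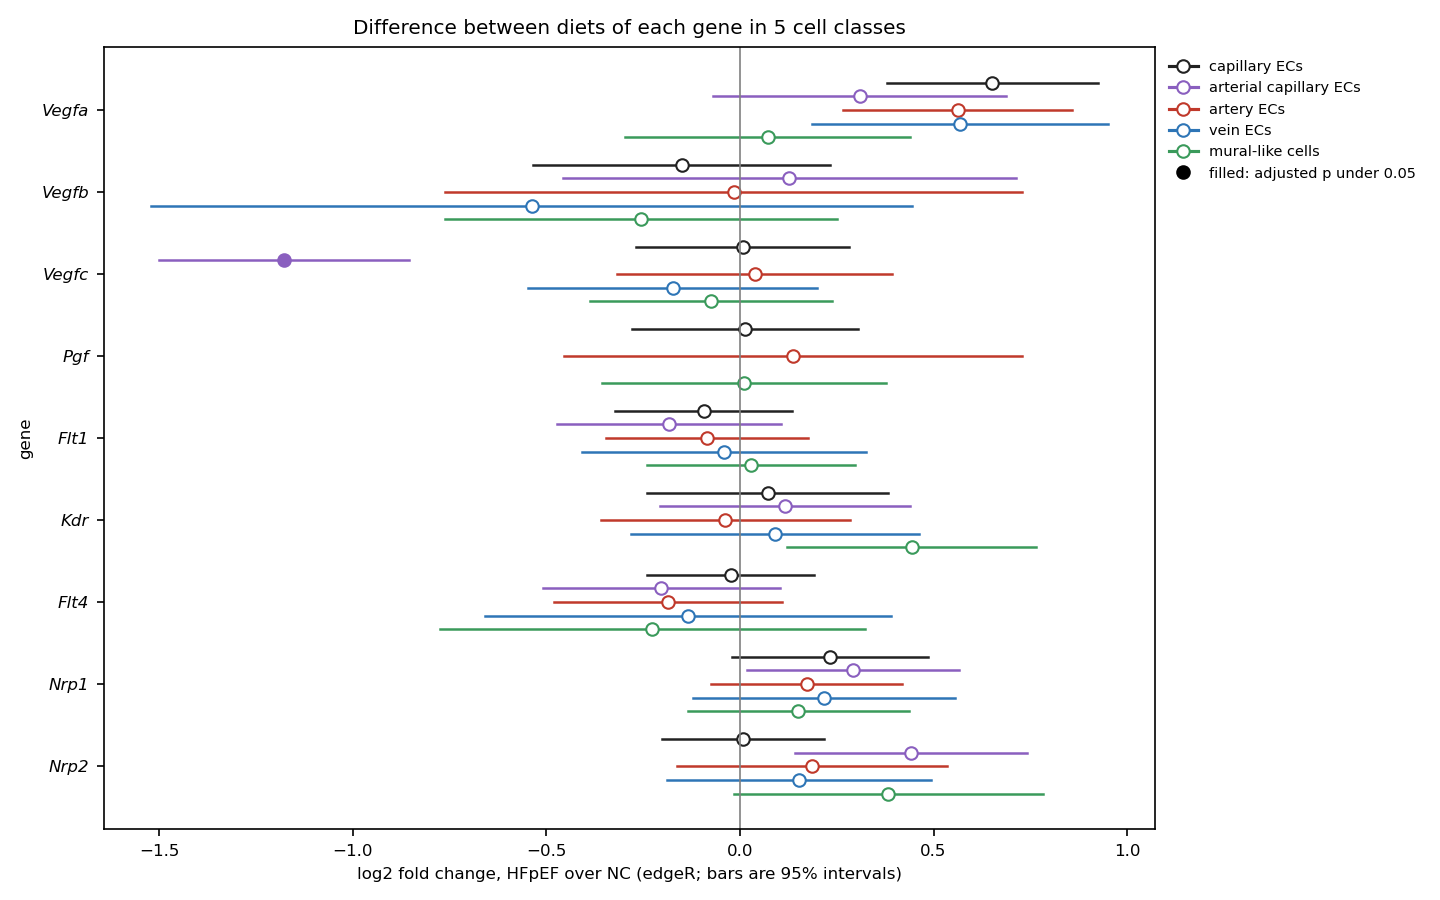
Log2 fold changes of HFpEF over NC with 95% intervals (horizontal axis) for the 9 genes (vertical axis) in 5 classes of cells, shown by color; filled points passed an adjusted p of 0.05. The filled point is Vegfc in arterial capillary ECs (-1.18), and Vegfa lies between 0.56 and 0.65 in capillary, artery and vein ECs.

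Other genes of the pathway were examined as 5 lists. In capillary ECs the VEGF-induced genes (immediate targets such as the Nr4a and Egr transcription factors, and endothelial activation genes such as Esm1 and Angpt2) had 1 of 12 tested genes higher and 0 lower, and their median log2 fold change was 0.47 against -0.01 over all genes. All 12 had a log2 fold change above 0. The called gene was Nr4a3, an orphan nuclear receptor, which rose from 11.7 and 11.4 CPM to 25.1 and 32.1 CPM (log2 fold change 1.34, SE 0.14, adjusted p = 0.0414 by edgeR). The list moved with the immediate-early and heat shock genes given above, with which it shares Egr1, and their part in it was not tested. In artery ECs the list's median was 0.11, and 3 of its 12 genes had a lower effect (log2 fold change) there than in capillary ECs, where 48 of all 11293 genes did: Egr3 (-0.53, adjusted p = 0.0362 by edgeR), Nr4a1 (-0.52, adjusted p = 0.0226) and Dusp5 (-0.61, adjusted p = 0.0319). In the comparison of arterial capillary with capillary ECs, 6 of 12 had a lower effect, where 383 of all 11361 genes were called lower and 206 higher. These were Dll4, a Notch ligand of arterial and tip cells (-0.40, adjusted p = 0.000874 by edgeR), Esm1, a secreted proteoglycan (-0.76, adjusted p = 0.0125), Nr4a2 (-0.54), Egr3 (-0.47), Dusp5 (-0.56) and Adamts1 (-0.31), the last a secreted protease. Esm1 is a leading gene of cluster E9, which made up less of the arterial capillary class in HFpEF. The part of this shift in the 6 effects was not tested. In mural-like cells the effects on Nr4a1 (-0.61), Nr4a2 (-0.68) and Nr4a3 (-1.24) were lower than in capillary ECs (adjusted p = 0.00277, 0.0108 and 1.27e-05 by edgeR), and that on Nr4a1 was higher in arterial capillary than in artery ECs (0.61, adjusted p = 0.0368).

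Of the hypoxia and HIF genes, 0 of 15 tested were called in capillary ECs, with a median of 0.14. Hif1a, the oxygen-regulated transcription factor subunit that drives Vegfa, had 52.5, 52.0, 67.9 and 71.7 CPM (log2 fold change 0.44, adjusted p = 0.0971 by edgeR). In vein ECs Hif1a rose from 75.3 and 89.7 CPM to 136 and 156 CPM (0.85, SE 0.19, adjusted p = 0.0389 by edgeR). Egln2, a prolyl hydroxylase that marks HIF for degradation, had a log2 fold change of -0.39 in capillary ECs (adjusted p = 0.124 by edgeR). The effect on Slc2a1, the glucose transporter GLUT1, was lower in artery than in capillary ECs (-1.12, adjusted p = 0.0496), and in arterial capillary against capillary ECs that on Egln1, another HIF prolyl hydroxylase, was higher (0.73, adjusted p = 3.01e-10) and that on Epas1, which encodes HIF-2α, lower (-0.26, adjusted p = 0.00322). Signal transduction genes downstream of KDR had 0 of 24 called and a median of -0.01, and Plcg1, the phospholipase recruited by KDR, had 79.8, 78.3, 54.2 and 58.3 CPM (-0.47, adjusted p = 0.0917 by edgeR). Prkd1, a kinase activated downstream of it, had 31.0, 34.3, 19.9 and 26.1 CPM (-0.46, adjusted p = 0.151). Hspb1, the small heat shock protein HSP27 that is phosphorylated in response to VEGF, rose in pericyte-like cells (0.86, SE 0.18, adjusted p = 0.0273 by edgeR). Receptor partners and modulators had 0 of 12 called and a median of -0.02, the smallest p-values being those of Dab2, an endocytic adaptor (0.31, adjusted p = 0.162 by edgeR), and Itgav, the integrin αv subunit (0.38, adjusted p = 0.290). In arterial capillary against capillary ECs, the effects on Efnb2, the arterial ephrin ligand that controls VEGF receptor uptake, and Mmrn2, a matrix protein that binds VEGF-A, were lower (-0.48, adjusted p = 3.00e-06, and -0.27, adjusted p = 0.0173), and that on Ephb4, the venous receptor of ephrin-B2, was higher (0.39, adjusted p = 0.00511). Neuropilin ligands and plexins had 0 of 8 called in capillary ECs and a median of 0.09, with Sema3d (1.45, adjusted p = 0.162 by edgeR) and Sema3a (0.29, adjusted p = 0.736) having the smallest p-values. In arterial capillary ECs their member Sema3g, a semaphorin of arterial endothelium that binds neuropilins, fell alongside Vegfc, from 215 and 162 CPM to 84.8 and 91.7 CPM (-1.08, SE 0.15, adjusted p = 0.0116 by edgeR). Its log2 fold change there was lower than in capillary ECs (-1.28, adjusted p = 2.84e-15 by edgeR) and artery ECs (-0.80, adjusted p = 0.00936), and it was also lower in mural-like than in capillary cells (-0.91, adjusted p = 0.000338). Sema3g is 1 of the 13 artery markers from which the classes were named, so it is no independent companion of Vegfc. The arterial capillary class also shifted between clusters E9 and E6 with the diet. The part of this in the Sema3g values, and in the other differences given for this class, was not tested.

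Over 32 clusters and classes, the genes whose mean levels were most like each member were named by Pearson's r of log2(CPM + 1), as a description with no p, since points share libraries and depth. Kdr was closest to Cmtm8, Cd300lg and Ushbp1 (r = 0.96 each), and Flt1 to Adgrf5 (0.94), Ptprb (0.92), which encodes the VE-PTP phosphatase, and Pkp4 (0.90). Vegfc was closest to Slc27a3 (0.90), Fgfr3 (0.80) and Stmn2 (0.79), and Vegfa to Fbxo30 (0.83), Adamts1 (0.83) and Irf1 (0.82). Nrp1 was closest to Nostrin (0.84), Pik3c2b (0.83) and Lrrc8c (0.82), Nrp2 to Fkbp1a (0.87), Trp53i11 (0.83) and Sh3bp5 (0.81), and Flt4 to Il7 (0.81), Adgrg3 (0.81) and Ddah1 (0.79). Pgf was closest to Rap2a (0.79), Lims1 (0.71) and Tnc (0.70), and Vegfb to B9d1 (0.79), Radil (0.73) and Ocrl (0.73). Among the members themselves, the highest values were those of Flt1 with Nrp1 (0.67) and of Flt1 with Kdr (0.61).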

How the data were processed

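Unique molecular identifiers were counted by the authors per gene and cell with Cell Ranger 5.0.1 after fastp trimming, on mm10, with reads downsampled between samples and the libraries aggregated; the deposited values are whole counts not divided by library size. Cells with over 200 genes and under 20% mitochondrial UMIs were kept. They were clustered by Leiden on 2000 variable genes, without the 9 members, with 10 components, 20 neighbours and resolution 0.8 (seed 1), and named from markers; the thresholds and the arterial capillary class were set on the data. Doublets were not removed except in an alternative (0.8% per 1000 cells). UMI counts were summed per library and class and tested with edgeR 4.0.16 (TMM, quasi-likelihood, R 4.3.3), with DESeq2 1.42.0 as an alternative. Other calculations used Python 3.11.15, numpy 2.4.6, scipy 1.17.1, pandas 2.3.3, scanpy 1.11.5, leidenalg 0.10.2 and matplotlib 3.10.9. The edgeR step was tested on simulated data: with 200 genes altered by 1 on the log2 scale in capillary ECs, 159 were recovered among 176 calls, 17 of them false. At the same size, 110 of 200 were recovered in artery ECs, 83 in vein ECs and 89 in mural-like cells. Arterial capillary ECs were not simulated. Besides the members, genes were named if called in a list, or else as the 2 with the smallest p in capillary ECs, or as the 3 most like a member. Members and lists were chosen with earlier results of these data known. Alternatives changed the tool, scaling, filter, cell classes, doublets, depth and libraries; leaving out 2 low-depth capillary clusters, the mural clusters low in EC genes, the separate pericyte-like and smooth muscle-like tests and the arterial capillary comparisons were added after seeing the data. Promoters and gene positions are from RefSeq and GENCODE for GRCm38.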

Additional observations from a re-analysis of the deposited data

Results flagged for a closer look

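The effect of the HFpEF regimen on Vegfc differed between classes of ECs by the test of an interaction term: it was -1.21 (log2) in arterial capillary ECs relative to capillary ECs and -1.19 relative to artery ECs. The effect on Nrp2 in arterial capillary ECs differed from that in capillary ECs by 0.41. At clustering resolution 1.2 these were -0.53 and -0.51 for Vegfc, the latter no longer past the threshold (adjusted p = 0.529 by edgeR), and 0.29 for Nrp2 (adjusted p = 0.255).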

How the results depend on the processing

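Of 891 values of the 9 members under alternatives, 12 passed where the reported value did not, 5 no longer passed (Vegfc against artery ECs was -0.51 at resolution 1.2; the others are given above), and 130 had another sign. Among the 142 values of members whose interval excluded 0, 1 had another sign, as Vegfa for arterial capillary against capillary ECs was 0.030 at resolution 1.2. Members that passed newly were Vegfa in capillary ECs with DESeq2 (0.64) or thinning (0.83) and in vein ECs at resolution 1.2 (0.82), Kdr in mural-like cells with the per-cell gate (0.61) or without HFpEF library 1 (0.64), Nrp2 in mural-like cells with the gate (0.71), Nrp2 in arterial capillary ECs without NC library 2 (0.68), and, against capillary ECs, Kdr (0.48) and Nrp2 (0.76) in mural-like cells with the gate and Kdr (0.43) and Vegfa (-0.84) without HFpEF library 1. Members called thus numbered 1 in capillary ECs with DESeq2 or thinning, 1 in vein ECs at resolution 1.2, 2 in mural-like cells and 2 in mural-like against capillary ECs with the gate. They fell to 0 in arterial capillary ECs and in their comparison with artery ECs at resolution 1.2, and to 1 in their comparison with capillary ECs at resolution 1.2 or with thinning. The cause was not tested.

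Calls over all genes in capillary ECs (23) became 336 with DESeq2, 12 without TMM, 222 with no count filter, 37 without doublets, 1 with the per-cell gate, 1 at resolution 1.2, 146 after thinning and 86 without the 2 low-depth clusters. In artery ECs (1) they were 27 with DESeq2, 187 with no filter, 2 without doublets, 37 with the gate and 7 after thinning, and in vein ECs (48) 8 with DESeq2, 127 with no filter, 5 without doublets, 74 at resolution 1.2 and 14 after thinning. In mural-like cells (24) they were 1 without TMM, 178 with no filter, 11 without doublets, 404 with the gate, 7 after thinning and 3 in the clusters low in EC genes, and in arterial capillary ECs (37) 373 with no filter and 15 at resolution 1.2. For artery against capillary ECs (53) they were 102 with no filter, 22 without doublets, 11 with the gate, 17 at resolution 1.2 and 16 after thinning, and for mural-like against capillary cells (86) 52 without doublets, 187 with the gate, 7 after thinning and 14 with the low-EC clusters. For arterial capillary ECs against capillary ECs (589) they were 144 at resolution 1.2 and 257 after thinning, and against artery ECs (18) 2 and 11.

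Leaving out 1 library at a time gave 0 to 22 calls in capillary, 2 to 50 in artery and 40 to 142 in vein ECs, 73 to 132 in mural-like cells, 103 to 234 in arterial capillary ECs, and 12 to 136, 24 to 191, 191 to 533 and 5 to 36 in the 4 comparisons of effects, with 0 to 2 members called. A fit with the library number as a replicate block gave 391 calls in capillary, 7 in artery, 101 in vein and 223 in arterial capillary ECs and 1 in mural-like cells, with 1 member, Vegfa (0.65, adjusted p = 0.0288 by edgeR), in capillary ECs. Same-numbered libraries deviated together with correlations of -0.02 to 0.04, so the numbers were not shown to pair the libraries. The HFpEF minus NC difference in the share of capillary ECs with a Vegfa UMI, 3.32 points at 1000 UMIs, was 1.22 at 500 UMIs and -3.87 without thinning. Depth per cell, 2 libraries per diet and genotypes that differ within a diet without being assigned limit all comparisons.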
